A study of Mus musculus with 6 samples.

Results

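The mRNAs of the cytosolic ribosomal proteins were followed in cultured mouse macrophages that had been grown out of bone marrow (BMDMs). Members were all rows of the deposited expression table whose symbol begins with Rpl or Rps and a digit, together with Rplp0, Rplp1, Rplp2 and Rpsa. S6 kinase genes and rows named as -ps pseudogenes were left out. This gave 93 of 29957 rows. By their roles, 77 of them encode the core proteins of the ribosome, 46 in the large subunit and 31 in the small subunit. The others are 8 paralogues, 6 rows whose transcripts are annotated as pseudogenes, the binding protein Rps19bp1 and the retrogene Rps23rg1.

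The libraries were 3 of cells given LPS+PA-BSA and 3 of control cells, all from wild-type (WT) mice. LPS is a bacterial cell wall component that acts through the receptor TLR4, and PA-BSA is a free fatty acid preparation that the study used in place of ATP as the second signal for the Nlrp3 inflammasome. Dose, time, strain, sex and age are not given in the sources used here, nor is it stated whether control cells received carrier BSA. No group given LPS alone was analysed here, so LPS and PA-BSA cannot be told apart. The labels do not state whether libraries of 1 group stem from different mice or cultures, so p-values cover only the spread between these libraries, which may be technical.

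Each ribosome carries close to 1 copy of every core protein around its ribosomal RNAs, so cells make these proteins in matched amounts. Their mRNAs are short, abundant and stable, and begin with a pyrimidine tract at the transcript start, the 5′ TOP motif, through which the mTOR pathway controls their translation. In macrophages, activation by LPS is known to reshape mRNA levels and translation together, which makes the mRNAs of the translation machinery a natural family to follow. FPKM (fragments per kilobase of transcript, scaled by the mapped fragments of each library) is a level per transcript length, so it can be compared between genes.

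All 8 macrophage markers (Adgre1, Csf1r, Cd68, Lyz2, Itgam, Mertk, Fcgr1 and Ctss) were measured in every group, and their summed level was 13730 to 16400 FPKM in LPS+PA-BSA libraries and 20180 to 23600 FPKM in control libraries. Summed neutrophil markers (7 of 8 found) reached 59.5 to 75.9 FPKM in LPS+PA-BSA libraries and 10.4 to 27.6 FPKM in control libraries, and stromal markers (6 of 6) 33.5 to 41.8 FPKM in LPS+PA-BSA libraries and 83.8 to 163 FPKM in control libraries. B cell markers (5 of 6) summed to at most 1.24 FPKM in LPS+PA-BSA libraries and 10.3 FPKM in control libraries, and T and NK cell markers (6 of 7) to at most 1.37 FPKM in LPS+PA-BSA libraries and 7.35 FPKM in control libraries. Dendritic cell, mast cell and erythroid markers each summed to no more than 5.46 FPKM in any library, and no marker found was at 0 in all 6 libraries. The part of these differences in the results was not tested, and in bulk RNA fewer cells of a type and less RNA per cell cannot be told apart. Depth, read from the steps between low FPKM values, was 14.3 to 18.8 M (mega) fragments in LPS+PA-BSA libraries and 13.9 to 21.1 M in control libraries. LPS+PA-BSA 1 stood apart from its group (group-centred first principal component −17.95, against 3.39 and 14.56 for LPS+PA-BSA 2 and 3), and control 3 did from the other controls (−29.93, against 12.97 and 16.97 for controls 1 and 2). Results that lean on these libraries are given with that fact.

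Ribosomal protein mRNA took up a smaller part of the transcriptome after LPS+PA-BSA. The 77 core genes made up 1.8997, 2.54 and 2.34% of all FPKM in LPS+PA-BSA libraries 1 to 3, against 4.20, 3.96 and 3.53% in control libraries 1 to 3. The groups did not overlap, and the means were 2.26 ± 0.328% after LPS+PA-BSA and 3.90 ± 0.338% in control (SD, n = 3 each; exact permutation test, two-sided p = 0.1, the smallest that 3 against 3 allows). Summed over the core genes, the level was 5100.2, 6971.7 and 6249.4 FPKM after LPS+PA-BSA and 12037, 11051 and 9563.2 FPKM in control, which is 1.78 times more in control (exact permutation test, two-sided p = 0.1). The median core gene stood at 30.4, 58.2 and 48.9 FPKM after LPS+PA-BSA, against 116, 94.4 and 78.9 FPKM in control. LPS+PA-BSA 1 was lowest of all 6 libraries by each of these measures.

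**Figure D1:**
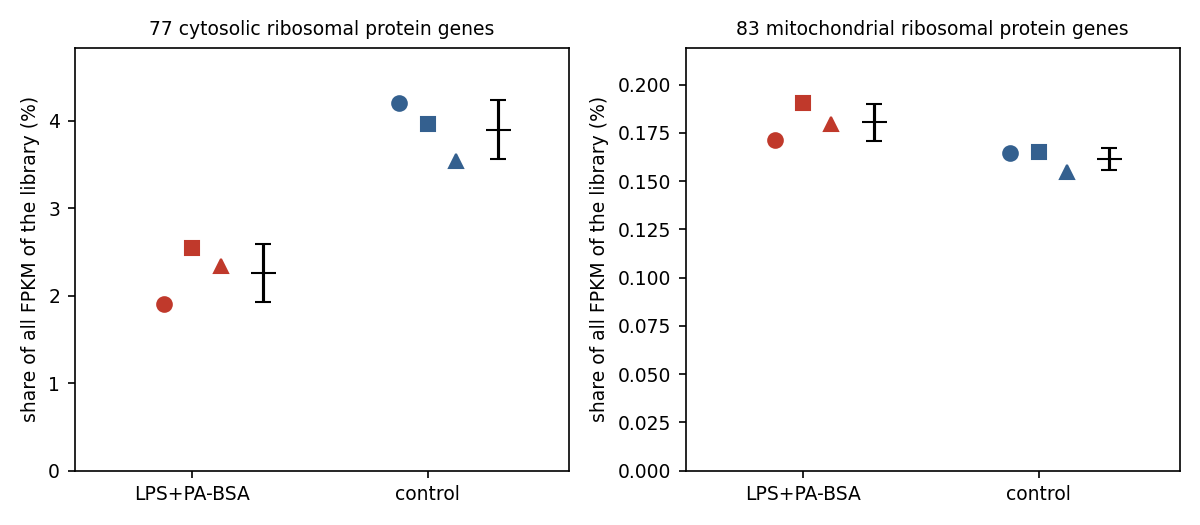
Share of all FPKM of a library (%, y axes, starting at 0) taken by the 77 core cytosolic ribosomal protein genes (left) and by 83 mitochondrial ribosomal protein genes (right). Points are single libraries, with circle, square and triangle for libraries 1, 2 and 3, and bars are the mean and SD of each group. The cytosolic share is 1.8997 to 2.54% after LPS+PA-BSA and 3.53 to 4.20% in control, while the mitochondrial share is 0.171 to 0.191% after LPS+PA-BSA and 0.155 to 0.165% in control.

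Mitochondrial ribosomal proteins, which serve the separate ribosomes inside mitochondria, took 0.171, 0.191 and 0.180% of FPKM after LPS+PA-BSA and 0.164, 0.165 and 0.155% in control (exact permutation test, two-sided p = 0.1). The ratio of cytosolic to mitochondrial ribosomal protein mRNA was therefore 11.1, 13.3 and 13.04 after LPS+PA-BSA, against 25.6, 23.9 and 22.9 in control (exact permutation test, two-sided p = 0.1). This ratio does not depend on how a library was scaled, and its groups lie far apart relative to their spread.

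Gene by gene, the shift covered most of the core set and went 1 way. Of the 77 core genes, all of which passed the filter on low values (at least 1 FPKM in at least 3 libraries), 55 were lower after LPS+PA-BSA and 0 were higher (limma on log2(FPKM + 1), Benjamini-Hochberg adjusted p under 0.05 over 11364 genes). Among all genes tested, 32.9% were lower and 22.2% were higher. The median log2 fold change of the core genes was −0.91, beside −0.11 for all genes tested, and 75 of 77 lay below zero. A fall of at least 1 on the log2 scale with a call was found for 30 core genes, where 10.9% of all genes had one. All 30 were among the 39 core genes in which control 3 lay below both other controls. All 3 LPS+PA-BSA values lay below all 3 control values for 62 core genes, which held for 36.9% of all genes. In the authors' deposited table, 49 core genes were lower and 0 higher at q under 0.05, beside 12.9% of all rows lower and 12% higher. These shares are over all 29957 rows, of which only 11364 passed the filter on low values. They are thus not matched to the core genes in level.

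Over all 93 members, 89 passed the filter, and 58 of them were lower and 1 was higher. Rpl3l, Rpl10l, Rps4l and Rps23rg1 did not pass. With quantile normalization the median of all genes was 0.01 in place of −0.11 and the higher share of all calls 50.8 in place of 40.3%, and 67 core genes were lower and 0 higher, where 25.7% of all genes were lower and 26.5% higher. The family's direction turned only on a scale centred on its own median member, where the members' median was 0.29.

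Large and small subunits fell together. In the large subunit 29 of 46 genes were lower (median log2 fold change −0.77), and in the small subunit 26 of 31, with a median of −0.99. The summed FPKM of large over small subunit genes was 1.26, 1.49 and 1.43 after LPS+PA-BSA and 1.29, 1.33 and 1.30 in control. These groups overlap (exact permutation test, two-sided p = 0.4), so no shift of balance between the subunits was detected. LPS+PA-BSA 1 lay below all 3 controls, and LPS+PA-BSA 2 and 3 above them. On the log2 scale the mean ratio differed between groups by 0.0882, by 0.160 without LPS+PA-BSA 1 and by 0.0356 without LPS+PA-BSA 2.

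**Figure D2:**
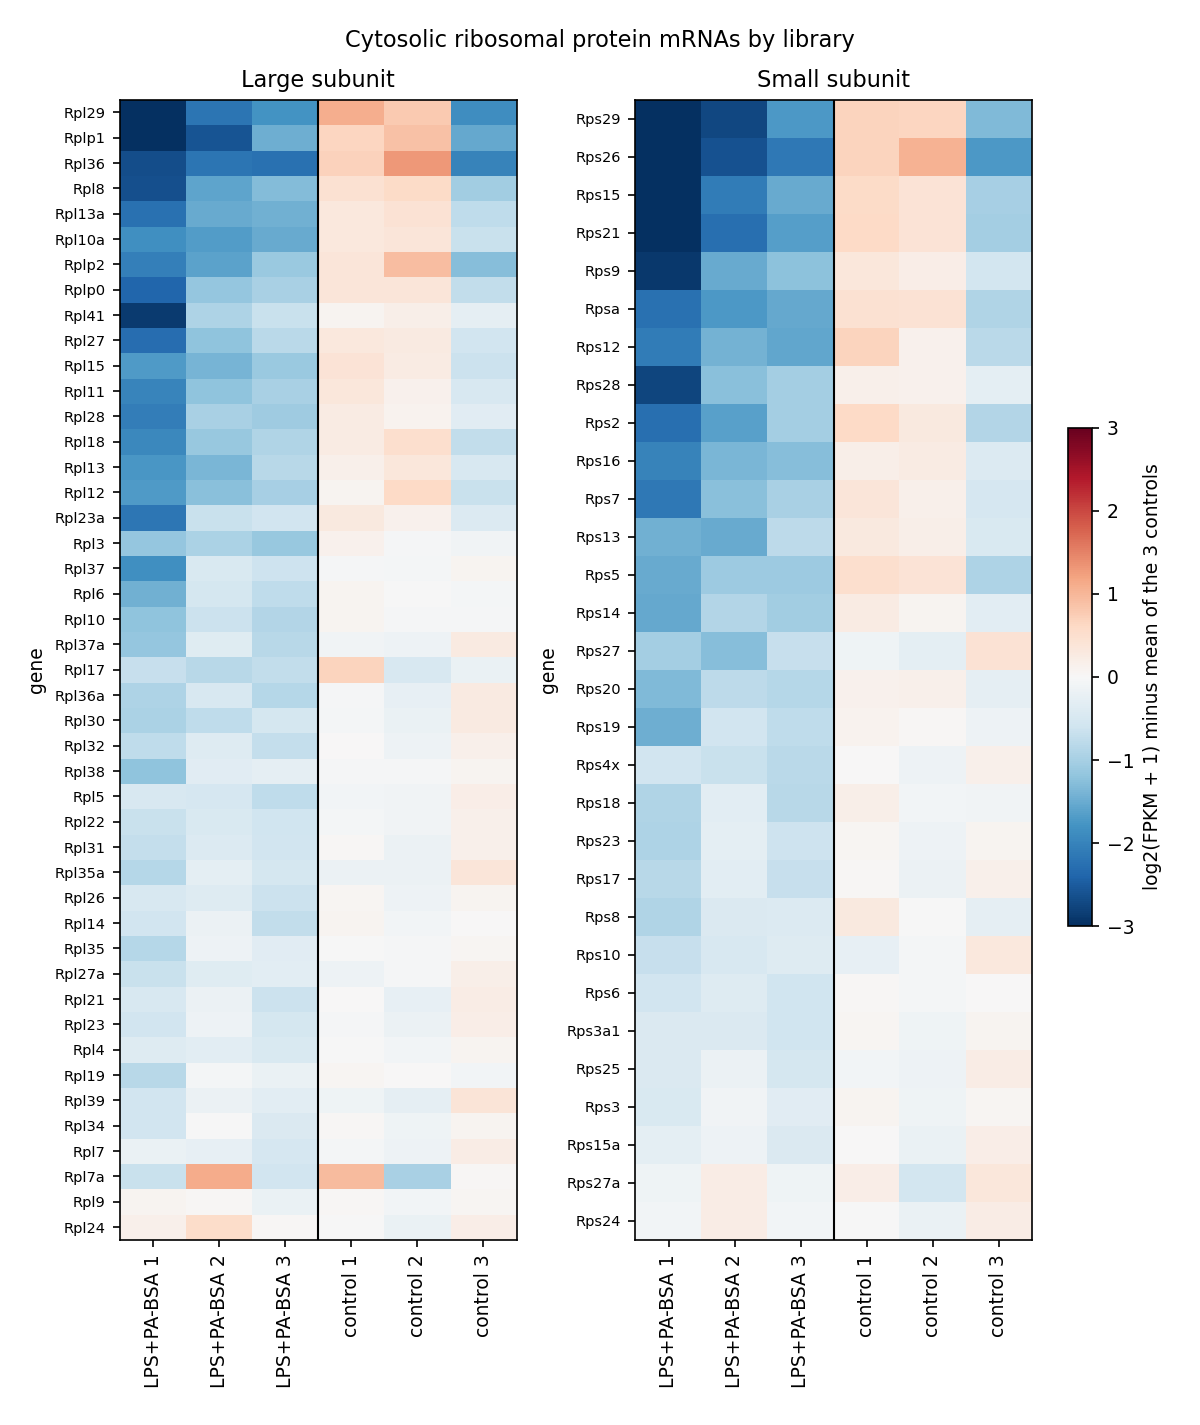
Each row is a core gene, with a few not shown, sorted by log2 fold change, and each column a library, with LPS+PA-BSA libraries left of the black line and control libraries right of it. Colour is log2(FPKM + 1) minus the mean of the 3 control libraries, limited to ±3. The upper rows are deep blue in LPS+PA-BSA libraries and also blue in control 3, and the lowest rows, such as Rpl24 at 0.24 and Rps24 at 0.02 on the log2 scale, are near white; centring on the median member would turn the lower rows red.

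The steepest falls were in proteins spread over both subunits. Rps29, a protein of the head of the small subunit (mm10 chr12:69157722-69159186, minus strand), was at 3.40, 7.79 and 16.6 FPKM after LPS+PA-BSA, against 92.1, 90.2 and 22.1 FPKM in control. Its log2 fold change was −2.72 (SE 0.692, limma adjusted p = 0.0156). Rps26, which lines the channel where mRNA leaves the small subunit (chr10:128624534-128626747, minus strand), was at 4.87, 8.69 and 12.3 FPKM after LPS+PA-BSA, against 92.7, 120.4 and 16.98 FPKM in control, a log2 fold change of −2.69 (SE 0.729, limma adjusted p = 0.0199). Both genes were lower in every LPS+PA-BSA library than in any control, yet control 3 lay much nearer to the LPS+PA-BSA libraries than to the other controls.

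Rps15, another protein of the small subunit head and 1 of the most abundant members, was at 21.5, 74.6 and 112 FPKM after LPS+PA-BSA, against 484, 429 and 162 FPKM in control (log2 fold change −2.49, SE 0.675, limma adjusted p = 0.0199). Among large subunit genes, Rpl29 and Rpl36 fell by 2.53 (SE 0.844, limma adjusted p = 0.0414) and 2.36 (SE 0.803, limma adjusted p = 0.0439) on the log2 scale. In them control 3 did not stand with the controls: Rpl29 was at 2.28, 7.59 and 10.3 FPKM after LPS+PA-BSA and 82.1, 66.3 and 9.89 FPKM in control, so its groups overlapped. Rpl36 was low throughout LPS+PA-BSA libraries at 1.32, 2.24 and 2.11 FPKM, and in control it was at 22.7, 35.2 and 2.69 FPKM. Among the other steep members were Rplp1, Rps21, Rps9 and Rpl8, whose protein sits near the catalytic centre, with log2 fold changes of −2.50, −2.33, −1.88 and −1.84.

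Some of these calls lean on single libraries. Without control 1, the log2 fold changes of Rps29, Rps26, Rpl29, Rplp1, Rps15, Rpl36 and Rpl8 were −2.38, −2.36, −1.99, −2.19, −2.20, −2.02 and −1.61, and without control 2 they were −2.40, −2.17, −2.14, −2.06, −2.29, −1.71 and −1.55, and none of the 7 was called in either case. Without LPS+PA-BSA 1, Rps26, Rpl29, Rplp1, Rpl36 and Rpl8 at −2.37, −2.00, −2.03, −2.21 and −1.45 were not called, and without LPS+PA-BSA 2 neither were Rps26, Rpl29, Rplp1 and Rpl36 at −2.73, −2.69, −2.46 and −2.45. Without LPS+PA-BSA 3, Rpl29 and Rpl36 at −2.89 and −2.42 were not called. Without control 3, the 7 genes first listed stood at −3.39, −3.55, −3.455, −3.27, −2.98, −3.36 and −2.37, in that order, and all were called. Rps21 and Rps9 kept their calls whichever library was left out. With no filter on low values, which adds genes to the adjustment, Rps26, Rps15, Rplp1, Rpl8, Rpl29 and Rpl36 were not called (limma adjusted p = 0.0608, 0.0609, 0.0822, 0.0678, 0.110 and 0.115). With GC and length trends removed, Rpl36 at −1.72 was not called (limma adjusted p = 0.0546). Within LPS+PA-BSA 1, LPS+PA-BSA 2 and control 3, Rpl36 stood at −0.43, Rpl29 at −1.04, Rpl8 at −1.07 and Rps15 at −1.99, none of them called.

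The stalk of the large subunit, built of Rplp0, Rplp1 and Rplp2, recruits the elongation factors. Rplp0, its anchor, was at 97.5, 228 and 257 FPKM after LPS+PA-BSA and 658, 656 and 304 FPKM in control (log2 fold change −1.50, SE 0.452, limma adjusted p = 0.0290). Rplp1 was at 13.02, 24.5 and 55.0 FPKM after LPS+PA-BSA and 239, 284 and 52.4 FPKM in control, with LPS+PA-BSA 3 above control 3. Rplp2, the partner of Rplp1, had a log2 fold change of −1.59 that did not pass (SE 0.565, limma adjusted p = 0.0506). Rplp0 was not called with no filter on low values (limma adjusted p = 0.0825) or without LPS+PA-BSA 1, at −1.07, nor without control 1 or control 2, at −1.32 each, and Rplp2 was called without control 3, at −2.23. Within LPS+PA-BSA 1, LPS+PA-BSA 2 and control 3, Rplp0 stood at −1.02, Rplp1 at −1.50 and Rplp2 at −0.54. Rpsa, a small subunit protein also known as the laminin receptor, was at 45.1, 64.4 and 74.0 FPKM after LPS+PA-BSA and 295, 293 and 115 FPKM in control (log2 fold change −1.83, SE 0.392, limma adjusted p = 0.00805), and kept its call whichever library was left out.

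A second set of members fell less but with little spread. Rpl3, which reaches to the catalytic centre (chr15:80077791-80091868, minus strand), was at 80.2, 93.9 and 81.8 FPKM after LPS+PA-BSA and 198, 177 and 169 FPKM in control, a log2 fold change of −1.08 (SE 0.0996, limma adjusted p = 0.000195). Rps6, the small subunit protein that S6 kinase phosphorylates downstream of mTOR, was at 279, 317 and 271 FPKM after LPS+PA-BSA and 427, 395 and 418 FPKM in control (log2 fold change −0.52, SE 0.0892, limma adjusted p = 0.00311). In both genes all 3 controls lay close together, control 3 included.

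Several of the most abundant members moved like Rps6. Rps3a1, which had the highest mean level in the small subunit, was at 472, 473 and 422 FPKM after LPS+PA-BSA and 658, 586 and 668 FPKM in control (log2 fold change −0.48, SE 0.0922). Rpl4, which lines the exit tunnel for the new protein, was at 338, 354 and 319 FPKM after LPS+PA-BSA and 436, 415 and 468 FPKM in control (log2 fold change −0.38, SE 0.0845). Rpl10, a late-joining large subunit protein, Rps4x and Rpl26 fell by 0.91, 0.69 and 0.51 on the log2 scale. All of these were called with limma, and no library left out in turn ended their calls. Within LPS+PA-BSA 1, LPS+PA-BSA 2 and control 3, Rps6 at −0.49, Rps3a1 at −0.50, Rpl4 at −0.43 and Rpl26 at −0.54 were not called. Rpl19, as abundant as these, was not called, at 244, 418 and 375 FPKM after LPS+PA-BSA and 453, 436 and 410 FPKM in control (log2 fold change −0.36, limma adjusted p = 0.163), with LPS+PA-BSA 2 inside the control range.

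**Figure D3:**
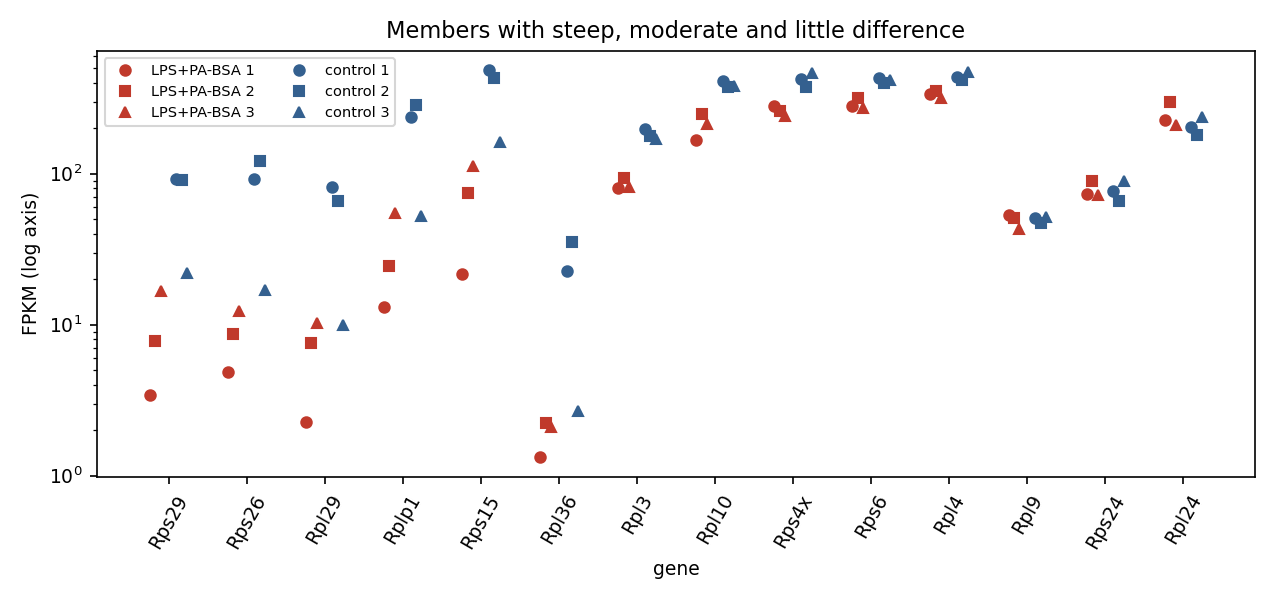
FPKM (log y axis) of 14 core genes in each library, LPS+PA-BSA in red on the left of each gene and control in blue on the right, with circle, square and triangle for libraries 1, 2 and 3. In Rps29, Rps26, Rpl29, Rplp1, Rps15 and Rpl36 control 3 lies below the other controls, in Rpl3, Rpl10, Rps4x, Rps6 and Rpl4 the controls cluster above all LPS+PA-BSA libraries, and in Rpl9, Rps24 and Rpl24 the groups overlap.

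Members with known roles outside protein synthesis followed the family to different degrees. Rpl5 and Rpl11, which together bind a small ribosomal RNA and can restrain Mdm2, fell by 0.58 (SE 0.119, limma adjusted p = 0.00678) and 1.39 (SE 0.316, limma adjusted p = 0.0104) on the log2 scale. Rpl13a, which in human monocytic cells can leave the ribosome to silence inflammatory mRNAs, was at 21.8, 37.0 and 38.6 FPKM after LPS+PA-BSA and 134, 145 and 62.4 FPKM in control (log2 fold change −1.73, SE 0.365, limma adjusted p = 0.00762). Rps19, mutated in human Diamond-Blackfan anaemia, fell by 0.93 on the log2 scale (SE 0.232, limma adjusted p = 0.0147), a call that was lost without control 1 at −0.87. Rps3, which also binds NF-kB p65, did not pass (log2 fold change −0.30, SE 0.114, limma adjusted p = 0.0604) but did without LPS+PA-BSA 2, at −0.40.

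A few core genes did not fall, and these are named after their values were seen. Rpl24, which bridges the subunits (chr16:55966275-55971435, plus strand), was at 227, 299 and 209 FPKM after LPS+PA-BSA and 204, 179 and 237 FPKM in control, a log2 fold change of 0.24 with a 95% interval of −0.16 to 0.63. Rps24 was at 72.9, 89.3 and 72.1 FPKM after LPS+PA-BSA and 76.2, 66.3 and 88.9 FPKM in control (log2 fold change 0.02), and Rpl9 at 52.8, 50.9 and 43.2 FPKM after LPS+PA-BSA and 50.9, 46.8 and 51.8 FPKM in control (log2 fold change −0.03). Their groups overlap. With each library's trend on GC content and length removed, Rpl9 was called lower at −0.32 (limma adjusted p = 0.0102), while Rpl24 at 0.11 and Rps24 at −0.25 were not called.

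Members did not all move by the same amount. After subtracting the median member of each library, 11 core genes were lower than the family and 8 were higher (limma, adjusted p under 0.05), where 2.53% of all genes were lower and 63.6% higher on that scale. Among the 11 were Rps29, Rps26, Rpl29, Rplp1, Rps15, Rpl36, Rps21, Rps9, Rpl8 and Rpsa. The 8 were Rpl7, Rpl7a, Rpl9, Rpl24, Rps3, Rps15a, Rps24 and Rps27a. Subtracting a library's median member leaves in place differences between libraries of the same group that vary from gene to gene. The order of the members was therefore not separated from the spread between libraries.

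That order went along with the GC content of the transcripts and with how control 3 behaved. With control 3 minus the mean of the other controls, the log2 fold change of the core genes had a Pearson r of 0.896 and a Spearman rho of 0.828. Over all tested genes these were 0.366 and 0.403. The order of the core genes thus tracked a difference within the control group. Across the 77 core genes the log2 fold change had a Pearson r of −0.53 and a Spearman rho of −0.53 with transcript GC content, beside −0.30 and −0.37 across all tested genes; genes of the same libraries are not independent, so no p is given. The 26 core genes with the lowest GC content (41.3 to 49.5%) had a median log2 fold change of −0.57, the middle 26 (49.6 to 53.9%) −1.03 and the 25 highest (54.0 to 60.8%) −1.44. The same libraries also differed from each other along GC content: log2 level changed per 10 points of GC by −0.42, −0.17 and −0.11 in LPS+PA-BSA libraries 1 to 3 and by 0.36, 0.40 and −0.06 in control libraries 1 to 3, relative to the mean library. Control 3 thus lay nearer to the LPS+PA-BSA libraries than to the other controls by this slope. Rps26 is an exception to the order, with a steep fall at a GC content of 48.6%.

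Control 3 was below both other controls in 39 core genes, above both in 32 and between them in 6, where 40.2% of all genes had it below and 46.6% above. The 39 had a median log2 fold change of −1.49 and 35 of them were lower. Their summed level was 1207, 2228 and 2371 FPKM after LPS+PA-BSA and 6043, 5778 and 3191 FPKM in control. The 32 had a median of −0.52 and 17 of them were lower. Theirs was 3198, 3742 and 3148 FPKM after LPS+PA-BSA and 4657, 4207 and 5200 FPKM in control. LPS+PA-BSA and control did not overlap in either set. The sets were chosen by the control 3 values of these same libraries. Their medians and sums depend in part on that choice and are a description only. Median GC content was 54.1% in the first set and 48.5% in the second. Within the LPS+PA-BSA group, library 1 was the lowest in 59 of 77 core genes, against 35.9% of all genes.

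**Figure D4:**
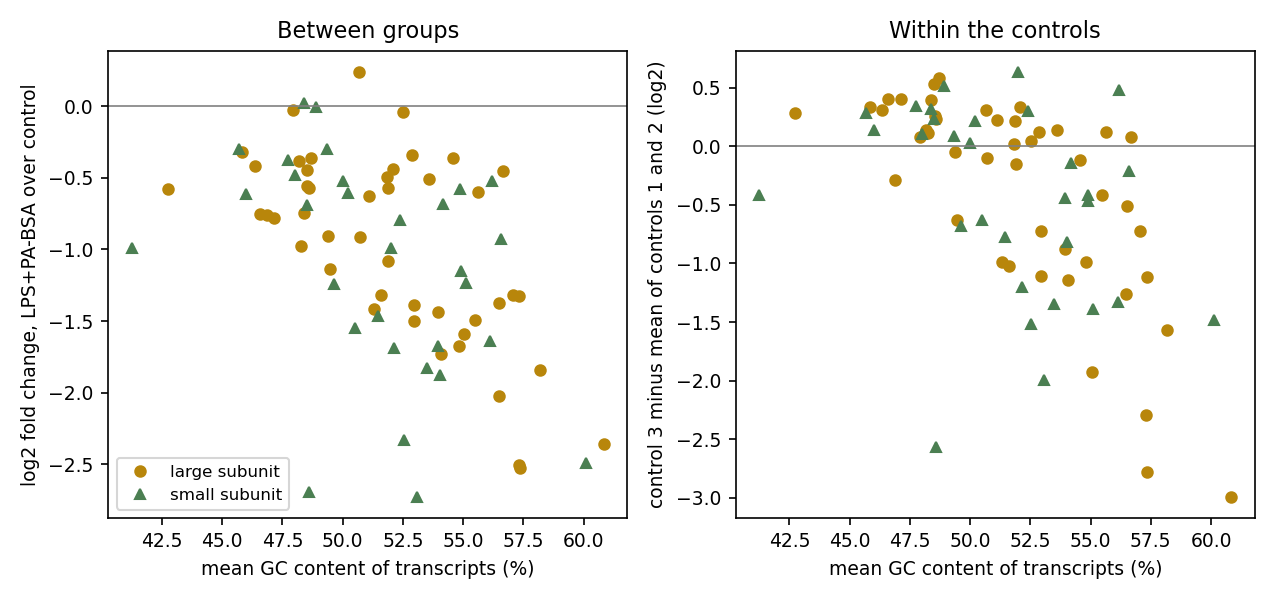
Each point is a core gene, with large subunit genes as circles and small subunit genes as triangles, at the mean GC content of its transcripts (%, x axes). The left y axis is the log2 fold change of LPS+PA-BSA over control (r = −0.53) and the right y axis is control 3 minus the mean of controls 1 and 2 on the log2(FPKM + 1) scale (r = −0.57), and both run downward with GC content.

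The family-wide difference was also seen on values from which that trend, fitted over all tested genes, had been taken out. With each library's trend on GC content and length removed, 66 of 77 core genes were lower and 0 higher, where 39.5% of all genes were lower and 22.8% higher, and their median log2 fold change was −1.004. The share of all genes called lower was 32.9% before this step. The medians of the sets of lowest, middle and highest GC content were then −0.81, −1.08 and −1.26, and r between log2 fold change and GC content was −0.22. A gradient along GC content thus remained among the core genes. Where the trend of each library comes from was not tested.

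Libraries were also compared within sets taken from earlier work on these data, in each of which 1 group has a single library, whose spread is assumed to be like that of the others. Within LPS+PA-BSA 3, control 1 and control 2, 64 core genes were lower (37.2% of all genes), with a median log2 fold change of −0.79. Within LPS+PA-BSA 1, LPS+PA-BSA 2 and control 3, 29 core genes were lower (15.8% of all genes) and the median of the core genes was −0.87. With 1 library standing for a group, these values describe the sets and are no independent check.

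Paralogues are extra copies with their own genes. Of the 6 tested, 1 was higher and 1 lower, beside 22.2% higher and 32.9% lower of all genes, and their median log2 fold change was 0.16. Rpl7l1, a paralogue of Rpl7 that acts in ribosome assembly, was at 33.4, 33.9 and 27.3 FPKM after LPS+PA-BSA and 22.1, 20.4 and 27.8 FPKM in control (log2 fold change 0.42, SE 0.141, limma adjusted p = 0.0423). LPS+PA-BSA 3 lay below control 3, and the call was lost at 0.38, 0.37, 0.39 and 0.33 without LPS+PA-BSA 1, LPS+PA-BSA 2, control 1 or control 2. It was also lost with quantile normalization at 0.35, with GC and length trends removed at 0.28 and with no filter on low values (limma adjusted p = 0.121, 0.0771 and 0.0949). Rpl22l1, which Rpl22 represses in mouse cells, was at 2.16, 2.54 and 2.54 FPKM after LPS+PA-BSA and 4.21, 3.80 and 5.92 FPKM in control (log2 fold change −0.71, SE 0.150, limma adjusted p = 0.00761). Rpl22 itself fell by 0.57 on the log2 scale (SE 0.102, limma adjusted p = 0.00364).

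Set against their partners within each library, paralogues took up a larger part of some pairs. Rpl36al over Rpl36a was 2.15, 2.04 and 2.30 after LPS+PA-BSA and 1.16, 1.21 and 0.956 in control. Rps27l, a p53 target, over Rps27 was 0.613, 0.956 and 0.635 after LPS+PA-BSA and 0.355, 0.388 and 0.253 in control. That ratio is uncertain, because reads can pass between Rps27 and its retrogene Rps27rt. Their summed level overlapped between groups (exact permutation test, two-sided p = 0.6). Rpl7l1 over Rpl7 was 0.230, 0.239 and 0.233 after LPS+PA-BSA and 0.138, 0.135 and 0.142 in control, with little spread within a group. Rpl22l1 over Rpl22 went the other way, at 0.0818, 0.0826 and 0.0922 after LPS+PA-BSA and 0.104, 0.0961 and 0.125 in control. In these 4 pairs the groups did not overlap (exact permutation tests, two-sided p = 0.1 each, the smallest possible, before any adjustment for the 6 pairs compared). The retrogene Rps27rt over Rps27 was 0.934, 3.81 and 0.848 after LPS+PA-BSA and 0.384, 0.529 and 0.369 in control (exact permutation test, two-sided p = 0.1), and Rpl39l over Rpl39 overlapped between groups (exact permutation test, two-sided p = 0.4). Rpl36a fell by 0.76 on the log2 scale, Rps27 by 0.99, while Rpl36al at 0.19, Rps27l at 0.12 and Rpl39l at 0.08 were not called; without LPS+PA-BSA 1, Rps27l was called higher at 0.24. Rpl3l, known from heart and skeletal muscle, and Rpl10l, known from testis, reached at most 0.0630 and 0.348 FPKM in any library.

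Many members have near-identical copies, and reads can pass between a gene and its copy. Of the pseudogene rows that are members, Rpl6l and Rpl32l were lower at −0.74 and −0.70, and Rps3a2, Rps3a3 and Rpl37rt were not called. Outside the members, the 224 rows named as -ps pseudogenes summed to 1756, 2020 and 1870 FPKM after LPS+PA-BSA and 2666, 2930 and 2778 FPKM in control, and of the 90 tested 33 were lower and 0 higher, beside 32.9% lower and 22.2% higher of all genes. Summing each member with its own -ps rows left 59 core genes lower and 0 higher, where 33% of all genes were lower and 22.5% higher.

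In some members a single library jumped while the copy moved the other way. Rpl7a was at 58.1, 204 and 62.0 FPKM after LPS+PA-BSA and 180, 47.1 and 95.4 FPKM in control (log2 fold change −0.04, SE 0.630). Its pseudogene Rpl7a-ps11 was at 120, 79.9 and 159 FPKM after LPS+PA-BSA and 167, 237 and 209 FPKM in control. Summed with all its -ps rows, Rpl7a stood at 189, 291 and 233 FPKM after LPS+PA-BSA and 355, 298 and 320 FPKM in control, and the groups no longer overlapped (exact permutation test, two-sided p = 0.1). Rps27a, which is made as a fusion with ubiquitin, was at 92.4, 119 and 92.8 FPKM after LPS+PA-BSA and 116, 69.0 and 128 FPKM in control, and Rps27a-ps2 was at 98.1, 67.3 and 41.9 FPKM after LPS+PA-BSA and 48.5, 154 and 99.8 FPKM in control. Its sum over copies overlapped between groups (exact permutation test, two-sided p = 0.3). The values of these members alone are therefore uncertain.

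Rps27 and its retrogene Rps27rt are another gene with its copy, but here a jump in the copy was not offset by the parent. Rps27 was at 33.5, 27.9 and 42.1 FPKM after LPS+PA-BSA and 62.6, 55.8 and 92.3 FPKM in control (log2 fold change −0.99, SE 0.223, limma adjusted p = 0.00982). Rps27rt was at 31.3, 106 and 35.7 FPKM after LPS+PA-BSA and 24.0, 29.5 and 34.1 FPKM in control (log2 fold change 0.75, SE 0.447, limma adjusted p = 0.194). Only LPS+PA-BSA 2 stood out for Rps27rt, in the library where Rps27 was lowest. Added together they came to 64.7, 134 and 77.8 FPKM after LPS+PA-BSA and 86.7, 85.2 and 126 FPKM in control (exact permutation test, two-sided p = 0.6).

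**Figure D5:**
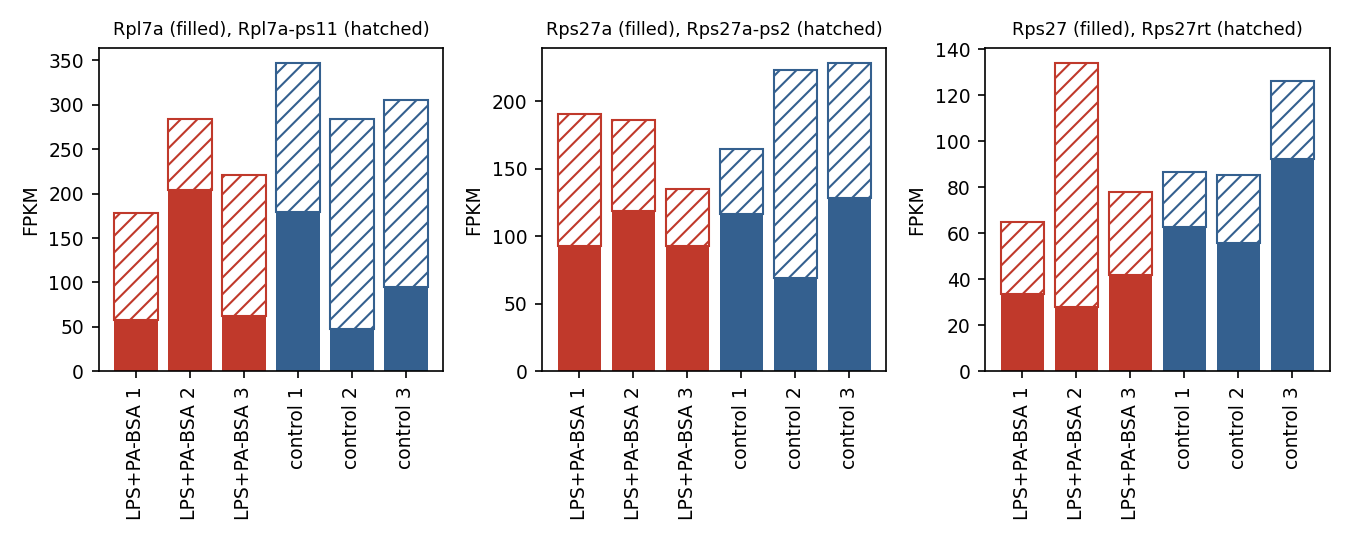
FPKM (y axes, from 0) of 3 members (filled) with a near-identical copy stacked on top (hatched), in each library, LPS+PA-BSA in red and control in blue. Rpl7a is tall and its copy Rpl7a-ps11 short in LPS+PA-BSA 2 (204 and 79.9 FPKM), with the reverse in control 2 (47.1 and 237 FPKM), and Rps27rt reaches 106 FPKM in LPS+PA-BSA 2 alone.

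The start of the transcript shows how alike Rps27 and Rps27rt are, and in some members a run of pyrimidines. In 30-base windows from 10 bases before to 20 bases from the RefSeq start (GRCm38.p6), the letters CTTTCC, searched on the gene's own strand and chosen after the windows were seen, stood in 9 of 57 core genes with an entry (15.8%) and in 412 of 27025 genes in all (1.52%). Because of that choice, the higher share among core genes is no test of enrichment. They are capitals in the windows of Rps27 (chr3:90213629-90213658, minus strand), Rps27rt (chr9:114982720-114982749, minus strand), Rpl13a (chr7:45128726-45128755, minus strand), Rpl28 (chr7:4792955-4792984, plus strand), Rpl15 (chr14:18270967-18270996, minus strand) and Rpl35a (chr16:33056472-33056501, plus strand), shown to set the retrogene beside its parent and beside members of steep and shallow fall.
Rps27: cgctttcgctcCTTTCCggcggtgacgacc
Rps27rt: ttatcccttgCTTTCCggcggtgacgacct
Rpl13a: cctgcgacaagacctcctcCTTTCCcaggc
Rpl28: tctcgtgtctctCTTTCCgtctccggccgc
Rpl15: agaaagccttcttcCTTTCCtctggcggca
Rpl35a: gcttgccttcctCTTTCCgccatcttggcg
With Rps27rt set 1 base along Rps27, the first 38 bases from the start of the retrogene are identical to those of Rps27, so these bases alone do not separate the 2 genes. Of the 49 bases compared, 39 were identical, so the sequences part after that run. Of the 9 core genes with CTTTCC, 6 were lower, and of the 48 with an entry but without these letters in the window, 34 were. Rpl13a, Rpl28, Rpl15 and Rps27 fell by 1.73, 1.37, 1.41 and 0.99 on the log2 scale, and Rpl35a at −0.56 did not pass. A match is a description of the letters and not of a site in use.

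Ribosomal proteins with other names were lower as well. Fau, made as a fusion with a ubiquitin-like protein, was at 9.17, 16.2 and 19.7 FPKM after LPS+PA-BSA and 79.5, 102 and 23.7 FPKM in control (log2 fold change −1.94, SE 0.555, limma adjusted p = 0.0242). Rack1, a signalling scaffold on the small subunit, fell by 1.25 on the log2 scale (SE 0.287, limma adjusted p = 0.0104). In both genes control 3 was below the other controls.

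A list of translation factors and 5′ TOP genes held 38 genes. Of these, 13 were lower and 11 higher, where 32.9% of all genes were lower and 22.2% higher. Their median log2 fold change of −0.12 was also near the −0.11 of all genes, so in this fit the list stayed near the background. Once GC and length trends were removed, 21 of the 38 were lower and 12 higher, where 39.5% of all genes were lower and 22.8% higher. The list was not split by whether a gene carries a 5′ TOP tract. It therefore does not show how 5′ TOP mRNAs moved as a class. Eef2, which moves the ribosome along the mRNA, was at 44.8, 75.2 and 95.5 FPKM after LPS+PA-BSA and 688, 737 and 169 FPKM in control (log2 fold change −2.67, SE 0.598, limma adjusted p = 0.00969). Eef1a1, which delivers transfer RNA, was at 2513, 2340 and 2128 FPKM after LPS+PA-BSA and 4159, 3856 and 4303 FPKM in control (log2 fold change −0.82, SE 0.102). Its exchange factor Eef1b2 fell by 0.91 on the log2 scale, and so did the initiation factor Eif4b. Initiation factors were called in both directions, and the other called ones are named to show both. Eif3e, Eif3f, Eif3h, Eif3k and Eif3l were lower as well, while Eif3c, Eif3d and Eif3j1 were higher. Eif2s1, Eif2s2, Eif4a1, Eif4g2 and Eif6 were also higher. Eif4e, which binds the mRNA cap, was at 38.4, 32.2 and 33.0 FPKM after LPS+PA-BSA and 14.3, 13.2 and 16.7 FPKM in control (log2 fold change 1.18, SE 0.114, limma adjusted p = 0.000234), and Eif5 rose by 0.85.

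A list of 24 genes was drawn up around control of 5′ TOP translation and ribosome assembly. It also holds genes without a direct role in either, such as Myc, Max, Mnt, Nacc1 and Aar2. Of the 24, 8 were higher and 5 lower (Mnt and Nacc1 included), beside the same 22.2% higher and 32.9% lower of all genes. Larp1, which binds the 5′ TOP tract, was at 39.1, 39.5 and 37.7 FPKM after LPS+PA-BSA and 22.7, 23.4 and 20.6 FPKM in control (log2 fold change 0.78, SE 0.0768, limma adjusted p = 0.000262). Bccip, known from ribosome assembly, rose by 0.67 on the log2 scale. Eif4ebp2, an inhibitor of Eif4e, was at 12.5, 11.3 and 11.2 FPKM after LPS+PA-BSA and 30.5, 31.4 and 30.9 FPKM in control (log2 fold change −1.34, SE 0.0753, limma adjusted p = 2.56e-05). Deptor, an inhibitor of mTOR, and Mnt, an antagonist of Myc, fell by 1.11 and 0.95 on the log2 scale, and Grwd1, a ribosome assembly factor, at −0.79 was not called. Of the 75 mitochondrial ribosomal protein genes tested, 21 were higher and 2 lower, with a median log2 fold change of 0.06, where 22.2% of all genes were higher and 32.9% lower.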

How the data were processed

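RNA sequencing of 3 LPS+PA-BSA and 3 control libraries (groups and numbers from the sample titles) was analysed. The authors deposited FPKM values, 1 column per library, together with a fold ratio of group means, the log2 of that ratio and a p-value with its q-value, per the file headers. Per the labels' protocols, poly(A) RNA was fragmented and read as pairs with a dUTP-marked second strand; PCR in such libraries can favour fragments by GC content. Tools named without roles in the submitters' processing notes are DESeq2, edgeR, StringTie 2.1.6, HISAT2 2.2.1 and cutadapt 1.9, with build mm10. How reads shared by near-identical copies were assigned was not given in the sources used here. FPKM are not counts, so limma 3.58.1 (R 4.3.3) with a variance trend was fitted to log2(FPKM + 1), two-sided, for 11364 genes that reached 1 FPKM in 3 or more of the 6 libraries, with Benjamini-Hochberg adjustment over all of them. On that log2 scale the change of low genes is understated. The script was tested on simulated data. Single values per library were compared by exact permutation. Other software was matplotlib 3.10.9, scipy 1.17.1, numpy 2.4.6 and pandas 2.3.3 under Python 3.11.15.

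Coordinates, length and GC content come from GENCODE M21 (mm10), matched by gene ID for 29871 of 29957 rows, and start windows come from RefSeq (69 of 93 members had an entry). Depths cover counting error only. The members and lists were chosen with earlier results of these data known. Named members were the stalk proteins and Rpsa, the 10 with the largest called changes in each direction, the 5 most abundant of each subunit, paralogue pairs, the 3 most and 3 least variable, members with known other roles, and up to 6 of each list by absolute change. A few genes that the rule names are not reported here. Alternatives were another pseudocount, no filter, no variance trend, quantile normalization, removal of GC and length trends, a replicate block, a term for or restriction to library sets, centring on the median member and leaving out each library.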

Additional observations from a re-analysis of the deposited data

How the results depend on the processing

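Calls of lower members ranged between 40 and 71 of 89 over the alternatives other than restriction to 3 libraries and centring on the median member, and leaving out single libraries gave 40 to 62, where 24.3 to 37.6% of all genes were lower. The number of higher members, 1 as reported, was 0 without a filter and within control 3, LPS+PA-BSA 1 and LPS+PA-BSA 2, 3 within control 1, control 2 and LPS+PA-BSA 3, and 0 to 2 when single libraries were left out. Within control 3, LPS+PA-BSA 1 and LPS+PA-BSA 2, where 1 control stands alone, 1197 genes were higher and 1797 lower in all, with 32 members lower, and 3 translation genes higher and 5 lower. With GC and length trends removed, 21 of the 38 translation genes were lower and 12 higher, where 39.5% of all genes were lower and 22.8% higher.

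Centring on the median member, which by construction takes the family's shift out, gave 7229 genes higher and 288 lower, 16 members higher and 11 lower, 25 translation genes higher and 1 lower, and a members' median of 0.29. Rpl19 and Rpl39 (0.67 each), Rpl7 (0.71), Rps3 (0.73) and Rps27a (1.03), not called as reported, turned positive, and Rpl7, Rps3 and Rps27a were then called higher. Of called genes, it turned the sign of Rpl4 (0.65), Rps3a1 (0.55), Rpl26 (0.52), Rps6 (0.51), Rpl22 (0.46), Rpl5 (0.45), Rps4x (0.34), Rpl22l1 (0.32), Rpl36a (0.28), Rpl10 (0.13), Rps19 (0.10) and Rps27 (0.041).

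The replicate numbers did not pair the libraries: deviations of libraries with the same number correlated at −0.472, 0.091 and −0.589. With a replicate block, 1918 genes were higher and 2820 lower (24.8% of those tested), and 46 members were lower and 0 higher. In short transcripts, levels near 1 FPKM stand for few fragments, which limits Rpl36, Rplp2 and Rpl39l.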
